A study of Mus musculus with 6 samples.

Results

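Cell division was followed here through 45 genes of mitosis, the spindle, the kinetochore and cytokinesis in mouse chondrocytes whose epidermal growth factor receptor (EGFR) was stimulated or blocked. The genes were chosen by symbol, as the entries of the count table that carry the listed names, and all 45 were found among its 44788 entries. The list of names was drawn up with earlier results of these data known. RNA came from cultured femoral epiphyseal chondrocytes, the cartilage cells of the end of the thigh bone, of C57BL/6 mice. Postnatal day 1 is the labelled age, whereas the culture protocol writes P2 without saying what it means. All cells grew in DMEM/F12 with 10% fetal bovine serum and received 0.1% DMSO. Each of the 3 groups had 2 libraries, named library 1 and 2 after the labels: a control given DMSO alone for 48 h (the series design says PBS), cells given 10 ng/ml transforming growth factor alpha (TGF-alpha) for 48 h, and cells given 10 µM gefitinib for 30 min and then gefitinib with TGF-alpha for 48 h. TGF-alpha is a ligand of EGFR and gefitinib inhibits the receptor's kinase; gefitinib without TGF-alpha was not analysed here. Whether the 2 libraries of a group stem from different cultures or mice is not stated, and the p-values below therefore reflect library-to-library spread that could be purely technical.

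A cell enters mitosis when cyclin B and CDK1 become active, a step driven forward by PLK1, Aurora A and the CDC25 phosphatases. Chromosomes then attach to spindle microtubules through kinetochores, the spindle checkpoint holds the cell until every chromosome is attached, and the anaphase-promoting complex with CDC20 triggers the cleavage of cohesin by separase, after which cytokinesis parts the daughter cells. Most of these genes are transcribed late in the cycle under the control of FOXM1 and the B-MYB and MuvB complex, so their mRNA is abundant in dividing cells and scarce in resting ones. In growing cartilage, columns of dividing chondrocytes lengthen the bone.

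Libraries held from 12317407 to 16096263 counts in total. Levels are given as CPM, the library-scaled count (TMM scaling). Chondrocyte markers were high in all libraries (12 of 12 tested, summed level from 38148 to 80116 CPM). At an adjusted p under 0.05 (edgeR), 12 of 12 fell with TGF-alpha, as did 14% of tested genes. When gefitinib was added 12 of 12 rose, as did 17% of tested genes. Against control, 6 of the 12 were still lower with gefitinib and 1 was higher, where 4.26% and 5.27% of tested genes were. Endothelial and erythroid markers summed to at most 1.15 CPM in any library, and the leukocyte markers Ptprc and Tyrobp had 0 counts in all 6. Fibroblast markers summed to between 15573 and 24823 CPM, with 2 of 8 higher and 3 lower under TGF-alpha, where 15.9% and 14% of tested genes were. Adding gefitinib raised 2 of the 8 and lowered 5, where 17% and 16.9% of tested genes were called. Against control, 0 were higher and 6 lower with gefitinib, next to 5.27% and 4.26% of tested genes. Osteoblast markers summed to between 80.3 and 154 CPM. Of the 4 tested, 0 were higher and 2 lower with TGF-alpha. Adding gefitinib raised 2 and lowered 2, and against control 0 were higher and 2 lower with gefitinib. The macrophage and osteoclast list summed to between 70.2 and 109 CPM, of which the protease gene Ctsk made up most. Only 4 of the 9 macrophage and osteoclast genes found had enough counts to be tested. TGF-alpha raised 1 of these 4 and lowered 1, with log2 values from -1.58 to 2.51. Adding gefitinib raised 2 and lowered 1. Compared with control, 1 of the 4 was called up and 0 down when gefitinib was present, and all 4 had a positive log2 value. Whether a shift in cell makeup had a part in the results was not tested.

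TGF-alpha raised nearly the whole set. Of the 45 members, 44 were higher with TGF-alpha than in control at an adjusted p under 0.05 and 0 were lower, where the test called 29.9% of all 15362 genes, 15.9% higher and 14% lower (edgeR quasi-likelihood test, Benjamini-Hochberg adjustment over all tested genes). The median log2 fold change was 1.23 over the members, a 2.35-fold rise, and 0.0039 over all tested genes. No member had a log2 value under 0. In all 45 members both TGF-alpha libraries lay above both controls, which held for 32.8% of tested genes, while 31.3% had both below. With gefitinib 44 of 45 were lower than with TGF-alpha alone and 0 were higher, where the test called 34% of genes, 16.9% lower and 17% higher, and the median log2 fold change was -1.28. Pttg1 was the 1 member higher at an unadjusted p under 0.05, and DESeq2 called 0 higher. In 44 members both gefitinib libraries lay below both TGF-alpha libraries, as in 32.3% of tested genes, and in 1, Pttg1, above, as in 33.5%. Against control, the cells given TGF-alpha with gefitinib differed in 2 members, 1 higher (Pttg1) and 1 lower (Kif23), where 9.52% of genes were called, 5.27% higher and 4.26% lower. DESeq2 called neither, and the Kif23 call was also lost with each library left out in turn. At an unadjusted p under 0.05, 12 members were lower and 2 higher in this comparison. No share of all tested genes at that unadjusted threshold is given here, so these counts have no background beside them. The 3 comparisons share libraries and are therefore not independent of each other. In bulk RNA, fewer dividing cells and less mRNA per dividing cell cannot be told apart.

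The 45 genes together took 0.0807% and 0.0857% of the counts in the control libraries, 0.208% and 0.195% with TGF-alpha, and 0.0817% and 0.0810% with gefitinib added. Their summed level was 838 and 878 CPM in control, 2061 and 1911 with TGF-alpha, and 807 and 797 with gefitinib. Every member passed the filter on low counts, and the lowest count of a member in any library was 38. The highest was 3076, and the standard errors of the log2 fold changes ran from 0.065 to 0.27.

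**Figure D1:**
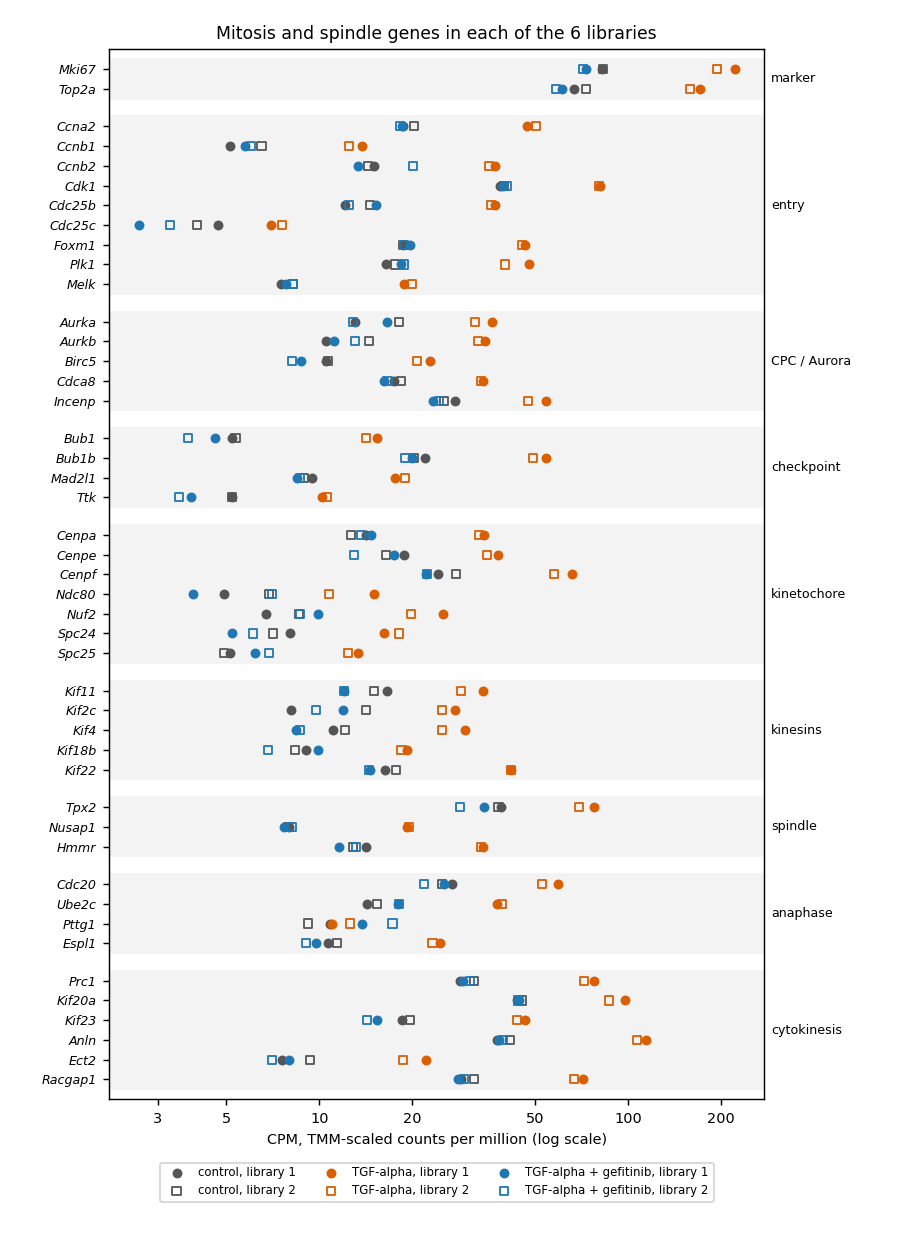
CPM of each of the 45 genes (rows, by role) in the 6 libraries, on a log axis; filled circles are library 1 and open squares library 2 of a group. For 44 genes the TGF-alpha libraries (orange) stand alone at the right, while Pttg1 is the row where the blue gefitinib libraries stand at the right.

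Genes of the late cell cycle share promoter elements, a CCAAT box bound by NF-Y and the cell cycle genes homology region (CHR), the element contacted by the MuvB complex, and the promoters of members that moved together are therefore shown next to that of Pttg1. They come from RefSeq (GRCm38.p6), run 5′ to 3′ on the gene's strand from 250 bases before to 50 bases from the start site on, and carry in capitals each TTTGAA or TTCGAA (CHR type) and each CCAAT, in either orientation (TTCAAA and ATTGG on the opposite strand).
Ccnb2, chr9:70421505-70421804, minus strand: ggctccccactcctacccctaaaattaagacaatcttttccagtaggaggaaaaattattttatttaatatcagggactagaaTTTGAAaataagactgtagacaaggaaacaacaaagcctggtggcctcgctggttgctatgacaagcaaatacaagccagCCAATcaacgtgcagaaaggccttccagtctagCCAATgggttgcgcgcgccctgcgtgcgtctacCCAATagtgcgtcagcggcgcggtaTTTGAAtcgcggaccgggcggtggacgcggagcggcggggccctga
Cdk1, chr10:69352863-69353162, minus strand: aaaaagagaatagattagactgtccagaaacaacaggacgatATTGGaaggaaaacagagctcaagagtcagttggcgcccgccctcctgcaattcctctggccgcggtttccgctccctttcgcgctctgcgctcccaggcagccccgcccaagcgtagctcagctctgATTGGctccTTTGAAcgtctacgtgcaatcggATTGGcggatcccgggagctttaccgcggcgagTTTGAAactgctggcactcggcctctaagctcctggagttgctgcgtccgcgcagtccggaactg
Plk1, chr7:122159185-122159484, plus strand: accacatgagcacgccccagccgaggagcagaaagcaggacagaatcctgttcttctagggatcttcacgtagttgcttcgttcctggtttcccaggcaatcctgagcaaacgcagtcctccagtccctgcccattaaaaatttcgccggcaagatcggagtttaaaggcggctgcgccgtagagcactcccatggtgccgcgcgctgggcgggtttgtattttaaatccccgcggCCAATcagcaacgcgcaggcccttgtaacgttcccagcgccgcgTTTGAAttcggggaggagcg
Pttg1, chr11:43425932-43426231, minus strand: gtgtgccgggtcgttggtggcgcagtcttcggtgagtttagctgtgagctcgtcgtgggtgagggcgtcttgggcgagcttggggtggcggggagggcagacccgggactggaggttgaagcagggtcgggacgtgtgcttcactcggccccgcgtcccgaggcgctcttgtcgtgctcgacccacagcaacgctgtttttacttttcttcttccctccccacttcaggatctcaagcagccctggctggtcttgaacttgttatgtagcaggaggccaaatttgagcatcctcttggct
The Ccnb2 promoter held 3 CCAAT boxes and 2 TTTGAA matches, 1 of them beginning 4 bases after the start site, Cdk1 had 3 and 2, and Plk1 had 1 of each. The Pttg1 window held none of these letters, but its RefSeq start lies 270 bases downstream of the outermost start of the gene in GENCODE M21, so another window would hold other letters. The same holds for members with matches, since the RefSeq starts of Kif2c, Cdca8 and Kif4 lie 3867, 2394 and 328 bases downstream of the outermost one.

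Of the 45 members, 37 had a RefSeq promoter. A TTTGAA or TTCGAA match was present in 29 of the 37 (78.4%) and in 21.7% of the 27025 genes with a promoter of the same length, or 15.9% of the 9760 tested ones. CCAAT was found in 28 members (75.7%) and in 41.1% of all and 43.0% of tested genes. Both kinds occurred together in 26 members (70.3%), against 8.61% of all and 6.63% of tested genes. A CHR-type match within 50 bases of the start site was found in 27 members (73.0%) and in 6.12% of all genes. A TTTGAA and a CCAAT match shared a base in the Cdca8 window, and CCAAT matches in opposite orientations shared bases in the Ube2c window. The members without any match were Birc5, Mad2l1, Melk, Nuf2, Nusap1 and Pttg1; Ccnb1 and Cenpe had CCAAT alone. Members with a CHR-type match had a median log2 of 1.25 with TGF-alpha and the 7 without one other than Pttg1 a median of 1.16, with ranges of 0.91 to 1.48 and 1.00 to 1.55 that overlapped. A match is a description of letters and not evidence of binding.

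**Figure D2:**
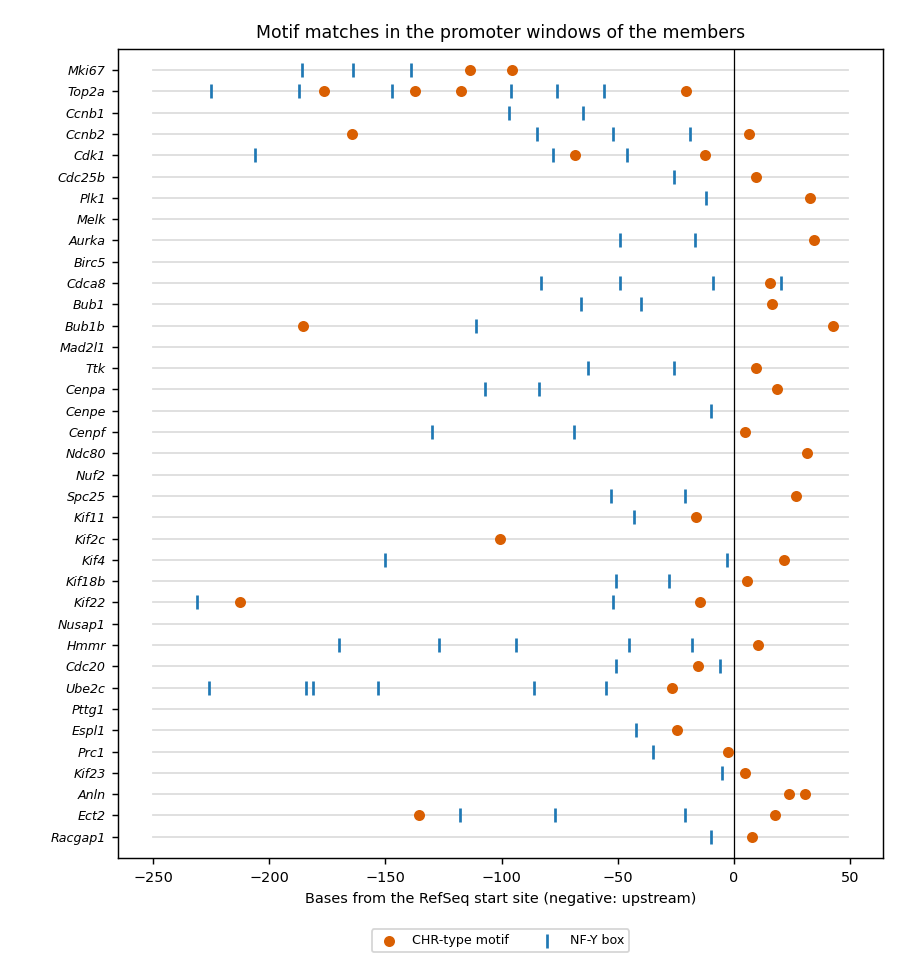
Positions of CHR-type matches (orange dots) and CCAAT boxes, which NF-Y binds (blue ticks), along the promoter window of 37 members, in bases from the RefSeq start site; 1 window is drawn per gene. CHR-type matches gather near the start site, and 27 members have 1 within 50 bases of it.

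Mki67, the proliferation antigen that coats mitotic chromosomes (chromosome 7, 135689784 to 135716361 in GRCm38), had the highest CPM of the set. It stood at 82.3 and 83.0 CPM in control, 222 and 194 with TGF-alpha, and 73.1 and 71.3 with TGF-alpha plus gefitinib. The gap between the 2 TGF-alpha libraries was far smaller than the gap to the other groups. Mki67 rose 2.51-fold with TGF-alpha (log2 1.33 ± 0.07 SE, adjusted p = 1.13e-09) and fell 2.88-fold with gefitinib (adjusted p = 2.7e-10). Top2a, the topoisomerase that untangles sister chromatids (chromosome 11, 98992943 to 99024189), was at 66.9 and 73.3 CPM in control, 171 and 159 with TGF-alpha, and 61.0 and 58.7 with gefitinib. Both gefitinib libraries lay below both controls for these genes, as in 25.6% of tested genes, but neither difference passed the test (log2 -0.19 ± 0.07, adjusted p = 0.0991 for Mki67, and log2 -0.23 ± 0.07, adjusted p = 0.0503 for Top2a). The 95% intervals of the fit put the gefitinib level at 0.788 to 0.969 of control for Mki67 and 0.771 to 0.945 for Top2a.

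All 9 genes of mitotic entry rose with TGF-alpha and all 9 fell with gefitinib. For this role and those below, the background was 15.9% of tested genes called higher with TGF-alpha and 16.9% called lower with gefitinib. Cdk1, the kinase that drives mitosis, was tightly replicated at 38.6 and 39.6 CPM in control, 81.0 and 80.6 with TGF-alpha, and 39.4 and 40.7 with gefitinib. It rose 2.07-fold and fell 2.02-fold (log2 1.05 ± 0.07 and -1.01 ± 0.07, adjusted p = 2.06e-08 and 2.81e-08), and its level with gefitinib overlapped the controls, with a 95% interval of 0.920 to 1.14 times control. Ccna2, the cyclin of S phase and early mitosis, was at 18.7 and 20.3 CPM, then 47.0 and 50.4, then 18.5 and 18.3 in the same order of groups. Its TGF-alpha libraries were far above the other 4, which lay close together. Ccnb1, a cyclin partner of CDK1, was at 5.15 and 6.495 CPM in control, 13.8 and 12.5 with TGF-alpha, and 5.76 and 6.00 with gefitinib, so that its controls enclosed the gefitinib libraries. The polo-like kinase gene Plk1 rose 2.57-fold, Foxm1, the transcription factor of the G2 and M programme, 2.46-fold, the second B-type cyclin gene Ccnb2 2.46-fold, the kinase gene Melk 2.46-fold and the phosphatase gene Cdc25b 2.72-fold, with adjusted p from 4.77e-08 to 6.41e-06.

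Cdc25c, the other CDC25 phosphatase of mitotic entry, moved in the same directions and rose least in this group. The 95% interval of its rise, log2 0.29 to 1.21, overlapped that of Cdk1, 0.90 to 1.19. Cdc25c had the lowest count of any member, and stood at 4.68 and 4.01 CPM in control, 6.995 and 7.56 with TGF-alpha and 2.60 and 3.28 with gefitinib. The 3 groups did not overlap, with gefitinib lowest. Its rise was the smallest called one (log2 0.75 ± 0.22, adjusted p = 0.0163), and that call was lost with DESeq2 (adjusted p = 0.119) and without control library 2 (0.122), TGF-alpha library 1 (0.0522) or TGF-alpha library 2 (0.0988). Of its exon bases 12.7% overlap the gene Gm3550 on the opposite strand, and whether counting used strand was not stated.

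Aurora A and the chromosomal passenger complex, which corrects wrong attachments and later marks the cleavage plane, gave 5 rises of 5 with TGF-alpha and 5 falls of 5 with gefitinib. Incenp, the scaffold of the complex, was at 27.6 and 25.3 CPM in control, 54.2 and 47.3 with TGF-alpha, and 23.4 and 24.4 with gefitinib. Cdca8, which encodes the subunit borealin, was at 17.5 and 18.4 CPM, then 34.0 and 33.4, then 16.2 and 16.6. Their rises were among the smaller ones (1.92- and 1.87-fold, adjusted p = 2.27e-06 and 4.97e-06), whereas the kinase subunit gene Aurkb rose 2.65-fold (adjusted p = 1.52e-06). Birc5, which encodes the subunit survivin, rose 2.06-fold, and Aurka, the kinase of spindle poles, 2.18-fold.

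All 4 spindle checkpoint genes rose with TGF-alpha and all 4 fell with gefitinib. Bub1, a checkpoint kinase of the kinetochore, went from 5.23 and 5.35 CPM in control to 15.4 and 14.2 with TGF-alpha and to 4.59 and 3.76 with gefitinib. Its fall with gefitinib, 3.53-fold, was the steepest of the set (log2 -1.82 ± 0.18, adjusted p = 1.56e-06). Bub1b, which encodes the checkpoint protein BUBR1, was at 22.01 and 20.2 CPM, 54.4 and 49.3, and 20.01 and 18.9, and Mad2l1, which encodes the CDC20 inhibitor MAD2, at 9.44 and 8.92, 17.6 and 19.0, and 8.496 and 8.64. Ttk, the kinase that starts the checkpoint signal, was at 5.23 and 5.22 CPM in control, 10.2 and 10.6 with TGF-alpha, and 3.84 and 3.52 with gefitinib. In all 4 genes both gefitinib libraries lay below both controls, as in 25.6% of tested genes, and none of these differences passed the test (adjusted p from 0.144 to 0.745). For Ttk the 95% interval reached from 0.522 to 0.953 of control. The intervals of the others were 0.592 to 1.06 (Bub1), 0.793 to 1.08 (Bub1b) and 0.756 to 1.15 (Mad2l1).

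Among the 7 centromere and kinetochore genes 7 rose with TGF-alpha and 7 fell with gefitinib. Cenpf, a large kinetochore protein, was at 24.2 and 27.8 CPM in control, 66.1 and 57.8 with TGF-alpha, and 22.1 and 22.4 with gefitinib. Cenpe, the kinetochore motor that carries chromosomes to the spindle equator, was at 18.8 and 16.4 CPM, 38.01 and 34.97, and 17.5 and 12.95. Cenpa, the histone variant that marks the centromere, rose 2.51-fold (adjusted p = 2.44e-07). The NDC80 complex, the rod that binds microtubules, has 4 subunits in the set. Nuf2 had the largest rise of all members, from 6.71 and 8.60 CPM to 25.2 and 19.9 (log2 1.55 ± 0.16, adjusted p = 3.17e-06), and was at 9.87 and 8.64 with gefitinib. Spc24 was at 8.04 and 7.07 CPM in control, 16.2 and 18.1 with TGF-alpha, and 5.21 and 6.08 with gefitinib, and Spc25 at 5.15 and 4.90, 13.3 and 12.4, and 6.17 and 6.88. With gefitinib Spc24 thus lay below its controls and Spc25 above them, without either difference passing the test (adjusted p = 0.155 and 0.235). Per kilobase of transcript, the ratio of Spc25 to Spc24 was 0.763 ± 0.0428 in control, 0.863 ± 0.116 with TGF-alpha and 1.32 ± 0.0426 with gefitinib (mean ± SD, n = 2). The gefitinib libraries were the highest 2 of the 6 in that ratio; it was picked after its values were seen and not tested. Ndc80 itself was spread widely, at 4.92 and 6.88 CPM in control and 15.1 and 10.8 with TGF-alpha, and its rise was no longer called without TGF-alpha library 1 (adjusted p = 0.0653).

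Of the 5 genes listed as kinesin motors (Kif20a, Kif23 and Cenpe stand under other roles), 5 rose with TGF-alpha and 5 fell with gefitinib. Kif22, a motor on chromosome arms, was at 16.3 and 17.8 CPM in control, 41.8 and 41.8 with TGF-alpha, and 14.6 and 14.5 with gefitinib. Kif11, which pushes the spindle poles apart, was at 16.5 and 15.03 CPM, 34.0 and 28.8, and 11.99 and 11.99. Kif4, the chromokinesin that works with PRC1, was at 11.1 and 12.1 CPM, 29.6 and 24.9, and 8.43 and 8.64. All 3 were lower with gefitinib than in either control, as were 25.6% of tested genes, with Kif4 and Kif11 near the threshold (log2 -0.45 ± 0.14, adjusted p = 0.0642, and log2 -0.39 ± 0.13, adjusted p = 0.0679). Kif2c, which takes microtubules apart at the centromere, had the least alike controls of all members, at 8.12 and 14.1 CPM, and Kif18b rose 2.17-fold. Of the spindle assembly genes 3 of 3 rose. Tpx2, the activator of Aurora A on the spindle, was at 38.7 and 38.1 CPM in control, 77.5 and 69.4 with TGF-alpha, and 34.2 and 28.6 with gefitinib. The hyaluronan-mediated motility receptor gene Hmmr, whose product sits at spindle poles, was at 14.1 and 12.9 CPM, 33.9 and 33.4, and 11.6 and 13.1, and Nusap1, which bundles spindle microtubules, at 7.96 and 7.90, 19.2 and 19.6, and 7.67 and 8.16. The 95% interval of Nusap1 with gefitinib was 0.803 to 1.24 times control.

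**Figure D3:**
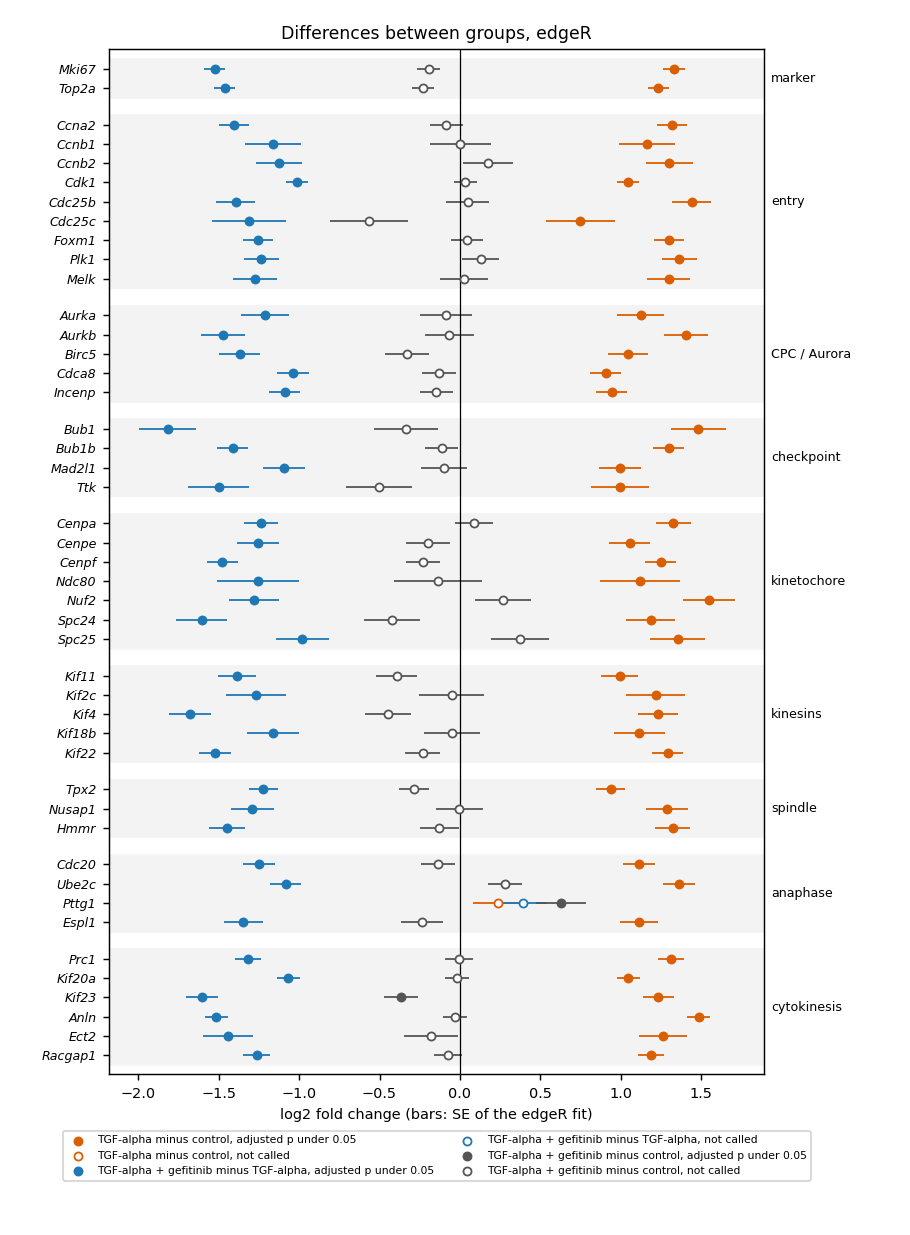
Log2 fold change of each member (x axis) with its SE in the 3 comparisons; filled points passed an adjusted p under 0.05. Orange rises stand opposite blue falls in 44 rows, with unequal sizes in some, such as Cdc25c (0.75 and -1.31) and Spc25 (1.35 and -0.98). Both of these comparisons use the TGF-alpha libraries. The grey points of TGF-alpha plus gefitinib against control lie between -0.56 and 0.37 in those 44 rows, and Pttg1 has its 3 points between 0.24 and 0.63.

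The genes of anaphase held the 1 member that did not follow. Cdc20, the activator of the anaphase-promoting complex, was at 26.9 and 24.96 CPM in control, 59.4 and 52.6 with TGF-alpha, and 25.3 and 21.8 with gefitinib. Ube2c, the ubiquitin-conjugating enzyme of that complex, was at 14.3 and 15.4 CPM, 37.6 and 39.0, and 17.95 and 18.15, and Espl1, which encodes separase, at 10.7 and 11.4, 24.6 and 23.3, and 9.73 and 9.04. All 3 rose with TGF-alpha (2.16-, 2.57- and 2.16-fold) and fell with gefitinib (2.37-, 2.12- and 2.55-fold), with adjusted p of at most 4.32e-06. Pttg1, which encodes securin, the inhibitor and chaperone of separase (chromosome 11, 43420250 to 43426251), was at 10.85 and 9.17 CPM in control, 10.96 and 12.6 with TGF-alpha, and 13.7 and 17.3 with gefitinib. Its libraries were thus lowest in control and highest with gefitinib, with no overlap between the groups, although control library 1 and TGF-alpha library 1 were nearly alike. The difference between TGF-alpha and control was not called (log2 0.24 ± 0.16, adjusted p = 0.297), with a 95% interval of -0.10 to 0.58 that overlapped the interval of Cdc25c, 0.29 to 1.21. Pttg1 rose against control when gefitinib was added (1.55-fold, log2 0.63 ± 0.16, adjusted p = 0.0189), a call lost with DESeq2 (adjusted p = 0.0655) and without control library 2 (0.182) or gefitinib library 2 (0.167). Against TGF-alpha alone the log2 value was 0.39 ± 0.15 (adjusted p = 0.0621).

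Securin and separase act as a pair, so their mRNAs were also set against each other per kilobase of transcript. The Pttg1 to Espl1 ratio was 8.39 ± 1.37 in control, 4.55 ± 0.619 with TGF-alpha and 15.3 ± 3.28 with gefitinib (mean ± SD, n = 2). The single libraries gave 9.36 and 7.42, then 4.11 and 4.99, then 12.99 and 17.6, with no overlap between the groups. This separation is not particular to the pair, since Espl1 moved with the other members and Pttg1 did not. The Pttg1 to Cdc20 ratio also separated the groups, at 1.00 and 0.914, then 0.459 and 0.595, then 1.35 and 1.97. Neither ratio was tested, and an exact permutation test (two-sided) cannot give a p under 0.33 in groups of 2. The size of such a ratio depends on the transcript lengths assumed, while its change between groups does not. Pttg1 transcripts run from 634 to 1674 bases in the annotation.

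**Figure D4:**
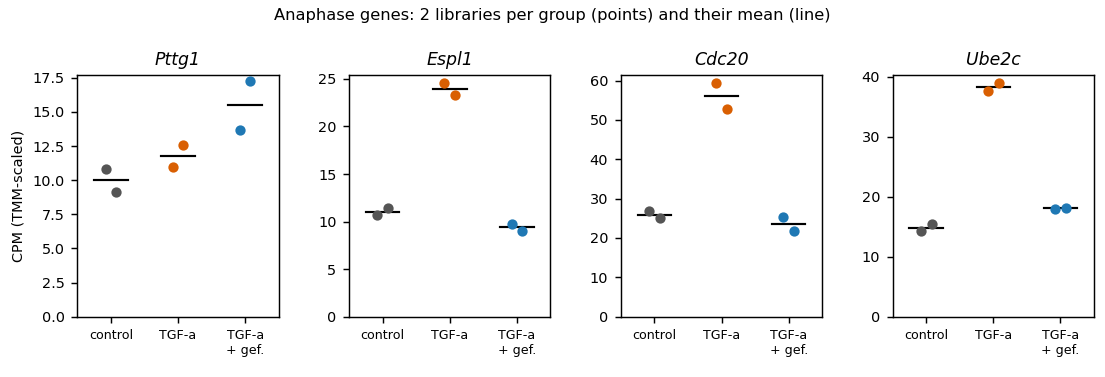
CPM of the 4 anaphase genes (y axis from 0) in the 2 libraries of each group (points) with their mean (line). Espl1, Cdc20 and Ube2c peak with TGF-alpha, whereas Pttg1 is highest with TGF-alpha plus gefitinib at 13.7 and 17.3 CPM.

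All 6 genes of the central spindle and cytokinesis rose with TGF-alpha and all 6 fell with gefitinib. Anln, the actin-binding scaffold of the contractile ring, had the second largest rise of all members, from 37.5 and 41.5 CPM to 114 and 107 (log2 1.48 ± 0.07, adjusted p = 8.45e-10), and was at 38.2 and 39.3 with gefitinib. Prc1, which bundles the microtubules of the central spindle, was at 28.5 and 31.6 CPM in control, 77.6 and 72.2 with TGF-alpha, and 29.3 and 30.9 with gefitinib. In both genes the gefitinib libraries lay inside the range of the controls, with 95% intervals of 0.873 to 1.10 and 0.876 to 1.14 times control. Kif20a, the kinesin that brings the passenger complex to the central spindle, was at 43.9 and 45.5 CPM, 97.9 and 86.96, and 44.3 and 43.98, although 29.3% of its exon bases overlap Cdc23 on the opposite strand. Kif23 and Racgap1 encode the partners of centralspindlin, which recruits ECT2, the activator of the ring. Kif23 (chromosome 9, 61915905 to 61946774) was at 18.6 and 19.7 CPM in control, 46.4 and 43.7 with TGF-alpha, and 15.3 and 14.3 with gefitinib. It was the only member below control at the threshold (log2 -0.37 ± 0.11, adjusted p = 0.0433), and that call was lost with DESeq2 (0.153), with only the 2 groups compared (0.07), with the replicate block (0.0583) and without any 1 of the 6 libraries (0.0621 to 0.222). Racgap1 rose 2.28-fold and Ect2 2.40-fold, and with gefitinib their levels did not differ from control by the test (adjusted p = 0.669 and 0.578).

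Compared per kilobase of transcript and over all 6 libraries, levels differed between members by about an order of magnitude. Ube2c (24.5 CPM per kilobase), Cdc20 (19.6), Kif20a (19.2), Cdk1 (18.9) and Top2a (18.8) were at the top, and Espl1 (2.22), Ttk (2.24), Bub1 (2.36) and Cdc25c (2.497) at the bottom. Pttg1, at 17.2 over all libraries, changed place between groups: it was at 13.9 ± 1.65 CPM per kilobase in control, 16.3 ± 1.59 with TGF-alpha and 21.5 ± 3.50 with gefitinib (SD, n = 2), where it had the highest mean of all members, ahead of Ube2c at 18.7 ± 0.145. These values rest on the median length of each gene's principal transcripts in GENCODE M21, and neighbours in the order are not told apart, since the isoforms used in these cells are not known. The log2 fold change with TGF-alpha had a Spearman correlation of 0.112 with mean CPM across the 45 genes, which share the same libraries. Across the 44 members other than Pttg1 the log2 values had an SD of 0.17 with TGF-alpha against control, next to a median SE of 0.12 for a single gene.

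The remaining distance from control was uneven. In the comparison of TGF-alpha plus gefitinib with control, 33 of 45 members had a log2 value under 0, as did 49.7% of tested genes, and the median was -0.10. In 19 members both gefitinib libraries lay below both controls and in 6 above, where 25.6% and 26.5% of tested genes did so. Transcript length moved with this difference, both in the members and in the transcriptome. Of 11 members with transcripts of 4 kb and over, 10 were below 0 (median log2 -0.20), as were 67.4% of 3769 tested mRNA entries of that length (median -0.083). Of 12 members under 2 kb, 7 were below 0 (median -0.076), as were 32.0% of 3241 entries (median 0.093). The Spearman correlation of the log2 value with length was -0.383 over the 45 members and -0.303 over 12018 tested mRNA entries. For gefitinib against TGF-alpha alone it was -0.408 over the members (-0.366 without Pttg1) and -0.0799 over those entries, and for TGF-alpha against control 0.0126 and -0.0982. Across the same entries the difference between the 2 libraries of a group correlated with length at -0.0265 in control, 0.106 with TGF-alpha and 0.131 with gefitinib. The part of length in the lower levels of Mki67, Top2a, Kif4, Kif11, Kif23 and Tpx2 was not tested.

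The rest of the division machinery was read from lists of further genes. Of 18 tested mitotic entry and exit regulators 13 rose with TGF-alpha and 0 fell, with a median log2 of 0.94, and 14 fell with gefitinib. Ccnf, an F-box cyclin, went from 13.8 and 13.4 CPM to 35.8 and 39.6 and to 14.8 and 15.6. Among 35 other centromere and kinetochore genes 24 rose with TGF-alpha and 25 fell with gefitinib (medians 0.81 and -0.83), among them the checkpoint gene Kntc1 (2.49-fold rise, adjusted p = 9.08e-07). Of 33 other spindle and centrosome genes 21 rose and 25 fell (medians 0.61 and -0.83), among them Aspm, which organises spindle poles (2.80-fold rise, adjusted p = 1.76e-07). Of 19 condensin, cohesin and shugoshin genes 14 rose and 1 fell with TGF-alpha, and 15 fell with gefitinib; the condensin gene Ncapd2 rose 1.90-fold (adjusted p = 4.26e-08). Of 18 other cytokinesis genes, a list that includes septins and membrane scission factors, 8 rose and 0 fell with TGF-alpha, where 15.9% of tested genes rose and 14% fell, and the median log2 was 0.15. For all 140 tested genes of the lists on division, 82 rose and 3 fell with TGF-alpha, where 15.9% of all tested genes rose and 14% fell. When gefitinib was added to TGF-alpha, 92 of the 140 fell and 3 rose. The shared background for the falls of each list in that comparison was 16.9% of all tested genes, while 17% rose.

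Among 17 genes of the anaphase-promoting complex and its partners 2 rose and 2 fell with TGF-alpha, with a median log2 of 0.076. These counts are close to the shares of all tested genes, 15.9% higher and 14% lower. The ligase subunit genes Anapc5 and Anapc16 fell by 0.21 and 0.26 on the log2 scale, while Fbxo5, which encodes the inhibitor EMI1, rose 1.92-fold (adjusted p = 0.0071) and the activator gene Fzr1 1.17-fold. The complex's cell-cycle partners Cdc20 and Ube2c, both members, rose more than 2-fold in the same libraries. A further list held 39 relatives of the members with roles outside mitosis, a name that does not exclude roles in mitosis as well. Among them 7 rose and 7 fell with TGF-alpha (median -0.021), close to the background of 15.9% and 14%. With gefitinib 7 rose and 5 fell, where 17% and 16.9% of tested genes did. The transport and other kinesins, 21 of those relatives, had 3 rises and 5 falls with TGF-alpha, next to the same background of 15.9% and 14%. Among the falls was Kif26a, which fell by 2.31 on the log2 scale (adjusted p = 0.000334). Plk2 and Plk3, relatives of Plk1 that respond to signals and stress, rose 1.63- and 2.53-fold (adjusted p = 2.61e-07 and 0.000343) and fell with gefitinib.

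**Figure D5:**
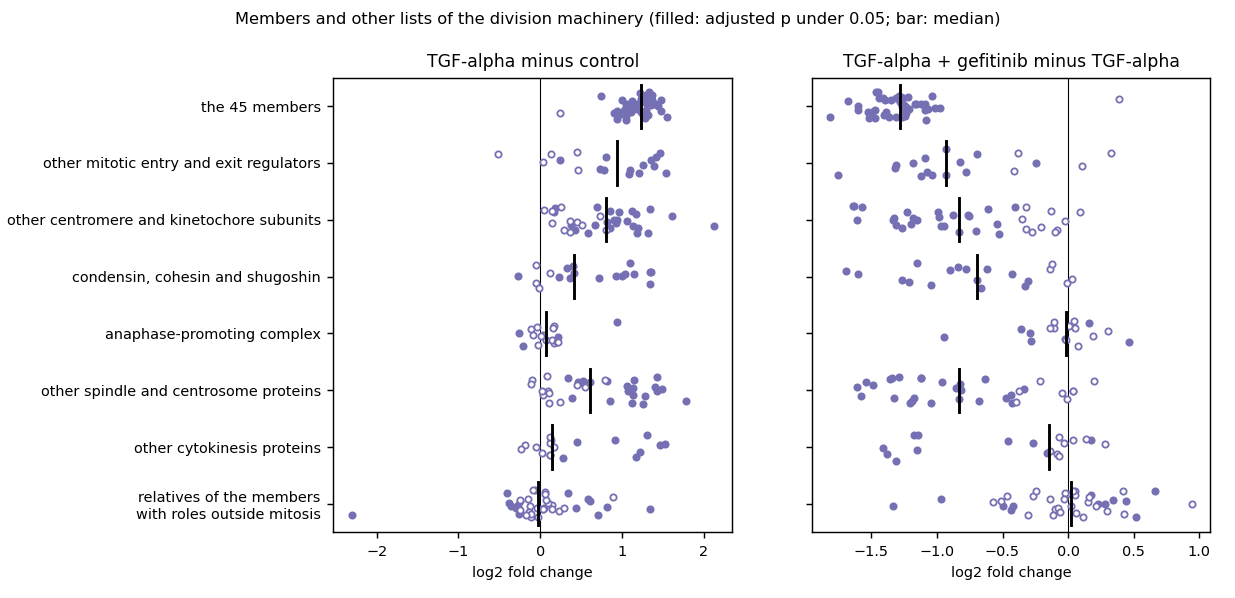
Log2 fold change (x axis) of the 45 members and of the tested genes of 7 further lists (rows), for TGF-alpha against control at the left and TGF-alpha plus gefitinib against TGF-alpha at the right; points are genes, filled where the adjusted p was under 0.05, and bars are medians. The members' medians stand at 1.23 and -1.28, and those of the anaphase-promoting complex and of the relatives with roles outside mitosis within 0.08 of 0.

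Against control with gefitinib present, 1 of 140 genes of the lists on division was higher and 6 were lower, where 5.27% and 4.26% of tested genes were. The higher count lay below its background share, and the lower count was close to its own. The lower ones included 4 of 19 in the condensin and cohesin list, with the cohesin subunit gene Rad21 at 127 and 125 CPM in control, 169 and 165 with TGF-alpha, and 108 and 109 with gefitinib (log2 -0.21 ± 0.05 against control, adjusted p = 0.023). Among the relatives with roles outside mitosis, Kif1a, a motor of vesicle transport, was the 1 gene of 39 higher than control (log2 1.48, adjusted p = 0.000383). Lower were 5, among them Plk2, the topoisomerase gene Top2b and Birc6, which fell by 0.26, 0.25 and 0.23 on the log2 scale (adjusted p = 0.0114, 0.0138 and 0.0164).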

How the data were processed

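Read counts per gene came as 1 table deposited by the authors, in whole numbers with no normalization, with a separate column for each of the 6 libraries. Libraries were prepared for Ion Proton sequencing per the labels' protocols. The submitters' processing notes name GRCm38. The aligner, counter, annotation, filters and use of strand were not given in the sources used here, and the 14 members that share exon bases with another gene may hold reads of that gene.

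In R 4.3.3, edgeR 4.0.16 kept 15362 genes (filterByExpr, minimum count 10), applied TMM scaling and fitted a quasi-likelihood model with 1 term, group, on 6 libraries (3 residual degrees of freedom). Tests between pairs of groups were two-sided, with Benjamini-Hochberg adjustment over all tested genes, and an adjusted p under 0.05 was a call. The SE is the absolute log2 fold change over the square root of F, and 95% intervals use it. These intervals hold for a single gene and are not adjusted for the number of genes tested. The fit was tested on simulated data. Alternatives were DESeq2 1.42.0, RLE scaling, no filter, 2 groups alone, a replicate block and each library left out. Positions and lengths came from GENCODE M21 and promoters from RefSeq, matched by symbol.

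The members and lists were chosen with earlier results of these data known. By rule, values per library are given for Mki67, Top2a, the 2 members of each role with the highest mean CPM, the 3 with the largest and the 3 with the smallest changes in each comparison, any called against the majority and any with a mean under 20 counts; other lists give up to 3 called genes with the smallest p per direction. Values per library of further members were added after they were seen.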

Additional observations from a re-analysis of the deposited data

How the results depend on the processing

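With TGF-alpha against control the count of members called higher lay between 42 and 44, and with gefitinib against TGF-alpha the count called lower was 44, under every alternative run; Pttg1 was called higher in the latter comparison without the filter on low counts (1 member, adjusted p = 0.0427) and in 0 to 1 members when a library was left out. Against control, the counts with gefitinib were small and moved: 2 members were lower with RLE scaling, 6 without a filter (Kif23, Mki67, Top2a, Kif11, Kif4 and Tpx2), and 0 with DESeq2, with only the 2 groups compared and with the replicate block, while 0 were higher with DESeq2. Leaving out 1 library gave 0 to 1 lower and 0 to 2 higher. The cause was not tested.

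Near 0 the sign of that comparison was not fixed. Ccnb1 had a log2 value of -0.0048 with RLE scaling, -0.0049 without a filter and -0.0013 with DESeq2, against 0.0032. When a library was left out, 13 uncalled members changed sign: Ccnb1 ranged from -0.15 to 0.19, Ccnb2 from -0.14 to 0.45, Cdc25b from -0.11 to 0.20, Melk from -0.035 to 0.096, Kif18b from -0.36 to 0.19, Nusap1 from -0.047 to 0.035, Aurka from -0.29 to 0.18, Aurkb from -0.27 to 0.19, Ndc80 from -0.61 to 0.24, Kif2c from -0.38 to 0.42, Prc1 from -0.074 to 0.077, Kif20a from -0.043 to 0.0075 and Anln from -0.098 to 0.044. With the lone library of a group its spread is assumed to be that of the other groups.

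Same-numbered libraries did not deviate together (correlations of 0.0034, -0.023 and 0.011 across 15362 genes), so the numbers were not treated as pairs; the replicate block gave 44 members higher and 44 lower in the first 2 comparisons. With 2 libraries a group, differences from control of the size seen in most members cannot be told from 0.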

Other observations

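The 2 TGF-alpha libraries differed in the same direction for most members: library 1 was above library 2 in 35 of 45 genes, by a median factor of 1.07, while 49.9% of all tested genes were higher in library 1. In control 17 members were higher in library 1 and 28 in library 2, and with gefitinib 22 and 23. The largest ratios between libraries of a group were 1.80 for Ndc80 with gefitinib and 1.74 for Kif2c in control. The ratio of Racgap1 to Kif23 per kilobase, partners in centralspindlin, was 1.79 ± 0.0466 in control, 1.74 ± 0.00799 with TGF-alpha and 2.21 ± 0.181 with gefitinib (mean ± SD, n = 2), with both gefitinib libraries above the other 4; it was picked after its values were seen.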
